A study of Rattus norvegicus with 6 samples.

Results

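A set of 9 genes of hepatic stellate cells and of the liver's extracellular matrix was followed through a rat study of ischemia reperfusion (IR), the injury that arises when blood flow to the liver is stopped and then restored. The 9 genes were chosen by identity, but with earlier results of these data known, so counts among them are not those of a blind choice. They were found by Ensembl ID among the 26689 gene IDs of the count tables: Col1a1 (ENSRNOG00000003897), Col1a2 (ENSRNOG00000011292), Col3a1 (ENSRNOG00000003357), Dcn (ENSRNOG00000004554), Sparc (ENSRNOG00000012840), Timp1 (ENSRNOG00000010208), Tgfb1 (ENSRNOG00000020652), Vim (ENSRNOG00000018087) and Des (ENSRNOG00000019810). All 9 had reads and passed the filter on low counts. The series asks whether acting on vasoconstriction or inflammation improves the outcome of IR. The animals, Rattus norvegicus, were healthy and untreated (control), had IR alone by clamping of the portal vein for a time, or had IR after receiving 2 drugs (treated IR). One drug was Etanercept, a soluble receptor that captures tumor necrosis factor, given at a dose of 9 mg/kg some 16 to 18 h ahead of IR. The other was Nitroglycerin, a source of nitric oxide, whose infusion at 6 µg/kg/min began ahead of IR and went on through it. Whole liver was read in each condition, and so were hepatocytes freshly isolated with collagenase from further animals, at day 1 after IR in the operated groups. Each of the 6 libraries is a pool of 3 animals and the only one of its group, so no pair of libraries can be set against a spread between replicates. The labels name no sham operation, and the effect of IR cannot be told apart from that of surgery.

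Stellate cells lie between the hepatocytes and the sinusoidal endothelium, store vitamin A and, in rodents, carry the muscle filament protein desmin. After injury they can turn into contractile, matrix-producing cells, a change driven in large part by the cytokine TGF-beta, and they then secrete fibrillar collagens and the proteins that bind and protect them. Portal fibroblasts and vascular cells make many of the same products, and vimentin, Timp1 and Tgfb1 are also made by endothelial cells and leukocytes. Des is also made by vascular smooth muscle.

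The 9 genes were a small fraction of the RNA. They took 504 reads (0.0259% of reads in genes) in control liver, 2531 (0.0353%) in IR liver and 2988 (0.0493%) in treated IR liver. In hepatocytes they took 50, 75 and 39 reads in the same order, or 0.00145%, 0.00141% and 0.00144%. Reads in genes per library ran from 1945331 in control liver to 7160610 in IR liver, so that 1 read was worth between 0.133 and 0.464 CPM (read counts divided by library size, with sizes scaled by the TMM method). Intervals below are 95% intervals for counting error only. In scaled CPM the 9 genes together had 220, 375 and 399 in control, IR and treated IR liver. The ratio of IR to control was 1.71 (interval 1.55 to 1.88), and that of treated IR to IR 1.06 (1.01 to 1.12). Markers of other liver cells were not analysed here, because the tables name genes by Ensembl ID and 0 of 26689 IDs are in the reference table, so their part in any result was not tested.

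Whole liver was first compared with isolated hepatocytes. Hepatocytes had less RNA of all 9 genes (adjusted p between 1.36e-05 and 0.0258 by edgeR's quasi-likelihood test, which set 3 hepatocyte against 3 liver libraries and allowed for condition). Of the 9932 genes tested, 4.9% were called lower and 0.433% higher. Summed over the 9 genes, the liver libraries held 6023 reads and the hepatocyte libraries 164, a level 23.4-fold higher in liver (interval 20.1 to 27.5). In bulk RNA, fewer cells of a type and less RNA per cell cannot be told apart. The filter bears on this count: 7 of the 9 genes reached its minimum in fewer than 2 hepatocyte libraries, and among the 1335 tested genes of that kind 31.6% were called lower. Sparc and Col3a1 reached it in 2 or more hepatocyte libraries.

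The median log2 ratio of hepatocytes to liver was -4.03 over the 9 genes and 0.03 over all genes tested. From summed reads, with 3 reads put in for Dcn in hepatocytes, the median of the 9 was -4.58. In 8 of the 9 genes every hepatocyte library lay below every liver library, as in 11.5% of all genes tested, and Timp1 was the exception. Within single conditions, at the 2-fold limit described below, 8 of the 9 were lower in control hepatocytes, all but Des, where 7.22% of all genes tested were lower and 3.87% higher. After IR it was 9 of 9 (11.5% lower and 5.9% higher among all genes), and in treated IR also 9 of 9 (12.8% and 6.88%). The filter bears on these counts too, since 7 of the 9 genes reached its minimum in fewer than 2 hepatocyte libraries. The matching shares among tested genes of that kind were not computed, so the contrast with all genes is overstated to an unknown degree.

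**Figure D1:**
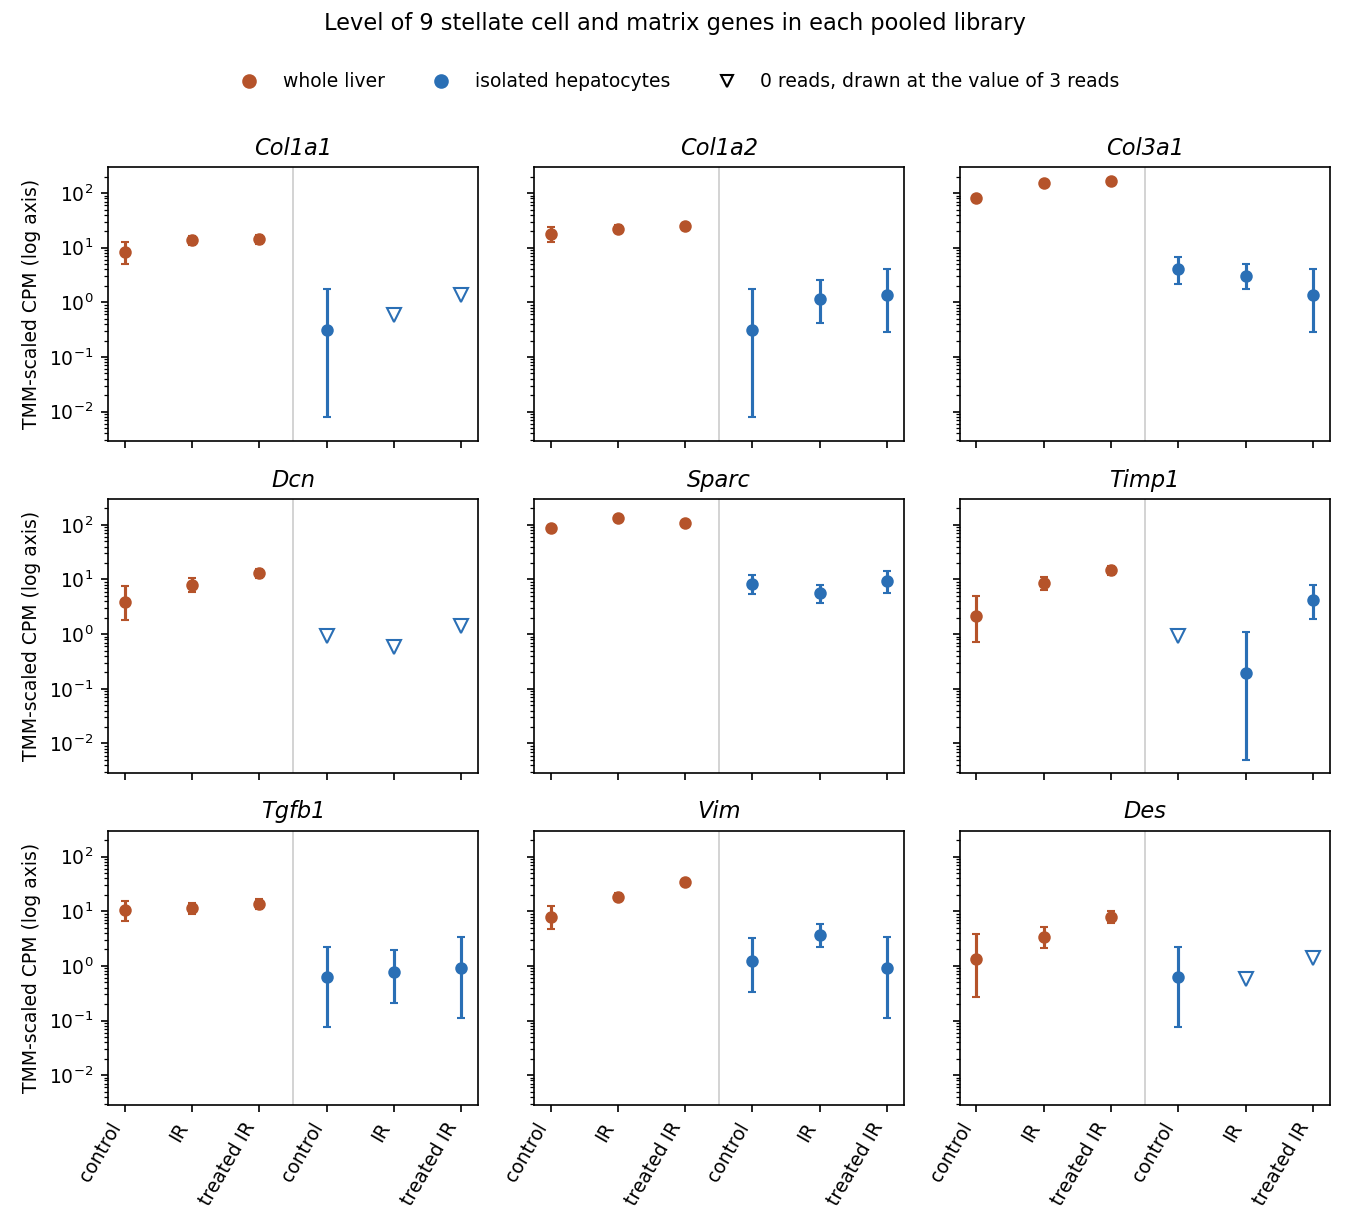
TMM-scaled CPM (log axis) of the 9 genes in the 6 pooled libraries, whole liver in brown and hepatocytes in blue, 1 point per library with its 95% Poisson counting interval. Open triangles mark libraries with 0 reads, drawn at the value of 3 reads. Dcn had 0 reads in all 3 hepatocyte libraries, and Timp1 in treated IR hepatocytes (4.18 CPM) lay above control liver (2.18 CPM).

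The fibrillar collagens are the rods of scar and of normal portal stroma. Col1a1 and Col1a2 encode the 2 chains of type I collagen, and Col3a1 the single chain of type III. Col3a1 had 81.2 CPM in control liver, 155.6 in IR liver and 166.1 in treated IR liver, against 4.04, 3.09 and 1.39 CPM in the matching hepatocyte libraries. Both liver libraries after IR lay well above control, while the hepatocyte libraries held 13, 16 and 3 reads. Its hepatocyte level was 2.02% of the liver level (interval 1.38 to 2.86), and its log2 ratio of hepatocytes to liver was -5.44 (SE 0.44, adjusted p = 1.36e-05 by edgeR).

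Col1a1 had 8.29, 13.6 and 14.1 CPM in control, IR and treated IR liver, and 1 read in control hepatocytes against 0 in both other hepatocyte libraries. The liver level was thus 138-fold higher over the 3 conditions, but a single read leaves this ratio between 24.6 and 5494 (log2 ratio of hepatocytes to liver -6.60, SE 0.75, edgeR adjusted p = 9.55e-05). Col1a2 had 17.9, 21.8 and 24.8 CPM in the same livers and 1, 6 and 3 reads in hepatocytes. Its liver level was 23.9-fold higher (interval 12.8 to 50.2, edgeR adjusted p = 3.74e-05). The proportion of the type I chains could not be told apart between livers. Control liver held 46.3 reads of Col1a1 for each 100 of Col1a2 (interval 25.4 to 81.7), IR liver 62.6 (47.7 to 81.8) and treated IR liver 57.0 (44.5 to 72.7). These intervals overlap, and in hepatocytes the reads are too few for the ratio.

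Dcn and Sparc encode proteins that bind collagen fibrils. Decorin (Dcn), a small proteoglycan made by fibroblasts and stellate cells, had 3.93 CPM in control liver, 8.0 in IR liver and 12.9 in treated IR liver, from 9, 54 and 97 reads. It had no read in any hepatocyte library. With 3 reads put in for those 3 libraries together, the liver level was 34.0-fold higher (edgeR adjusted p = 3.13e-04). The 95% Clopper-Pearson interval, which also carries the counting error of the liver reads, starts lower, at 27.4.

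Sparc, a secreted calcium-binding glycoprotein of stellate, endothelial and other stromal cells, had 86.9, 134.6 and 109.6 CPM in control, IR and treated IR liver. In hepatocytes it had 8.38, 5.61 and 9.29 CPM from 27, 29 and 20 reads, more reads than any other of the 9 genes in each hepatocyte library. The hepatocyte level was 6.18% of the liver level (interval 4.85 to 7.77), above the 2.02% that Col3a1 kept, and the intervals of the 2 genes do not overlap. The log2 ratio of hepatocytes to liver was -3.85 (SE 0.35, edgeR adjusted p = 2.35e-05).

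Timp1 and Tgfb1 regulate the matrix. Timp1 inhibits the metalloproteinases that degrade collagen and is induced early in liver injury. It had 2.18 CPM in control liver, 8.45 in IR liver and 14.8 in treated IR liver, from 5, 57 and 111 reads. In hepatocytes it had 0, 1 and 9 reads, the last worth 4.18 CPM. The hepatocyte level was 9.06% of the liver level (interval 4.27 to 17.1, log2 ratio -3.10, SE 0.65, edgeR adjusted p = 0.00952), and 9 of its 10 hepatocyte reads came from the treated IR library.

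Tgfb1, the cytokine that drives collagen synthesis in stellate cells, varied least of the 9 genes across the liver libraries with TMM scaling (with library totals alone Sparc did). It had 10.5, 11.4 and 13.6 CPM in control, IR and treated IR liver and 2, 4 and 2 reads in hepatocytes. Its liver level was 16.2-fold higher than in hepatocytes (interval 8.06 to 38.0, edgeR adjusted p = 1.63e-04).

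Vim and Des encode intermediate filament proteins. Vimentin (Vim), found in most cells of mesenchymal origin, had 7.86 CPM in control liver, 18.2 in IR liver and 35.0 in treated IR liver. In hepatocytes it had 1.24, 3.67 and 0.929 CPM from 4, 19 and 2 reads, highest in the IR library. Its hepatocyte level was 9.72% of the liver level (interval 6.22 to 14.6, log2 ratio -3.09, SE 0.47, edgeR adjusted p = 8.04e-04).

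Desmin (Des), the filament of muscle and of rodent stellate cells, had the fewest liver reads of the 9 genes: 3, 23 and 59 reads, or 1.31, 3.41 and 7.88 CPM, in control, IR and treated IR liver. Hepatocytes held 2 reads in control and 0 in both libraries after IR. The liver level was 27.1-fold higher (interval 7.28 to 228, edgeR adjusted p = 0.0258). This call is the least firm of the 9, since without the treated IR liver library its adjusted p was 0.318 and without the treated IR hepatocyte library 0.0581.

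**Figure D2:**
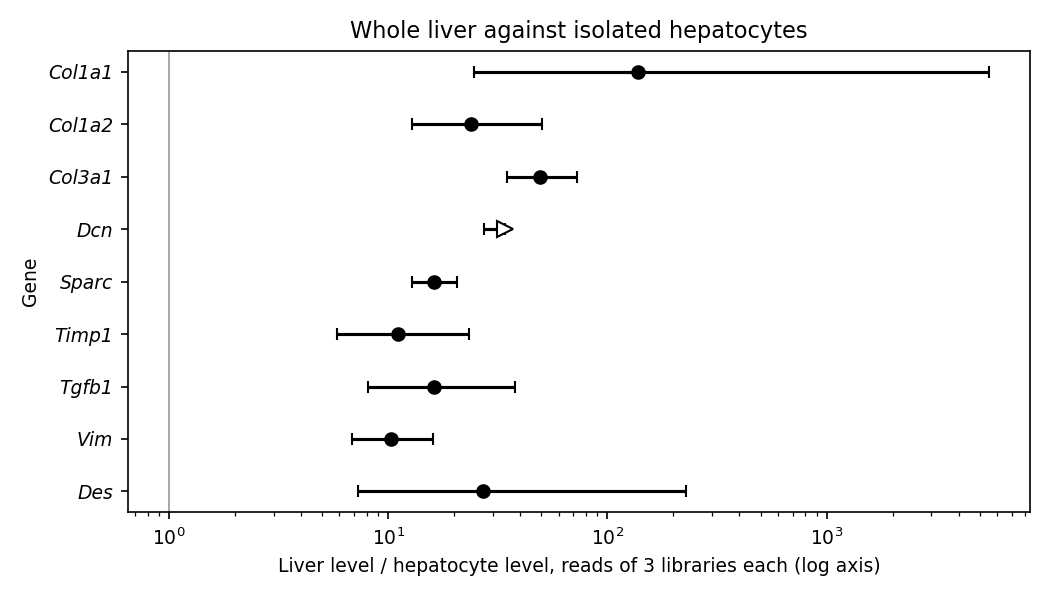
Level in whole liver divided by that in hepatocytes (log axis), from reads summed over the 3 libraries of each preparation, with 95% Clopper-Pearson counting intervals. The open triangle for Dcn marks 34.0, the ratio with 3 reads put in for its count of 0 in hepatocytes, and the bar to its left ends at 27.4, where its interval starts. Ratios run from 10.3 for Vim to 138 for Col1a1, whose interval rests on 1 hepatocyte read.

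Shares among the 9 genes need no scaling between libraries, though they depend on transcript length. Their total is fixed, so a larger share of some genes makes others smaller. Col3a1 made up 41.2% of the reads of the 9 genes over the 3 liver libraries (95% Wilson interval 39.9 to 42.4) and 19.5% over the 3 hepatocyte libraries (14.2 to 26.2). Sparc made up 32.0% in liver (30.8 to 33.2) and 46.3% in hepatocytes (38.9 to 54.0). Vim stood at 6.69% in liver (6.09 to 7.35) and 15.2% in hepatocytes (10.5 to 21.5). For Col3a1 and Sparc the summed shares in liver and hepatocytes thus differed by more than counting error. The sums weigh conditions unequally, as control gave 504 of 6023 liver reads and 50 of 164 hepatocyte reads. Within single conditions the Sparc intervals overlapped in control and IR. They were apart in treated IR, at 51.3% in hepatocytes (36.2 to 66.1) and 27.5% in liver (25.9 to 29.1). Those of Col3a1 overlapped in control and were apart in IR and treated IR. For Vim the gap came with 1 library. Of the 25 hepatocyte reads of Vim, 19 came from the IR library, where Vim took 25.3% (16.9 to 36.2), against 8.0% (3.15 to 18.8) in control hepatocytes and 5.13% (1.42 to 16.9) in treated IR hepatocytes. In an alternative chosen after seeing the data, the IR library was left out of the hepatocytes but kept in the liver. Vim then took 6.74% of the hepatocyte reads (3.13 to 13.9), which overlaps liver. Col3a1 at 18.0% (11.4 to 27.2) and Sparc at 52.8% (42.5 to 62.8) did not overlap liver. The sides then hold unlike conditions, so this alternative cannot show whether the gaps of Col3a1 and Sparc hold within conditions. In treated IR hepatocytes Timp1 took 23.1% (12.6 to 38.3), against 3.71% (3.09 to 4.45) in treated IR liver.

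IR was then compared with control in whole liver. A pair of libraries was called apart at a gene where the ratio was 2-fold or more and its counting interval lay clear of 1. By this rule 2 of the 9 genes, Timp1 and Vim, were higher in IR liver and 0 lower, where 3.76% of all genes tested were higher and 2.23% lower. Timp1 was 3.87-fold higher (interval 1.57 to 12.4) and Vim 2.32-fold (1.41 to 4.04).

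The level in IR liver was above control for all 9 genes, as for 54.5% of all genes tested, except that with library totals alone Col1a2 (21.1 CPM in control, 20.6 in IR) and Tgfb1 (12.4 and 10.8) lay below it. The median log2 ratio was 0.93 over the 9 genes and 0.04 over all genes. Col3a1 was 1.92-fold higher (interval 1.64 to 2.25) and Sparc 1.55-fold (1.33 to 1.82), both short of 2-fold with intervals above 1. For Col1a1 (ratio 1.64, interval 0.995 to 2.85), Col1a2 (1.22, 0.856 to 1.77), Dcn (2.04, 0.998 to 4.69), Des (2.60, 0.786 to 13.5) and Tgfb1 (1.09, 0.681 to 1.80) the interval included equality. Library totals alone shift all log2 ratios by -0.32, and Timp1 is then the 1 gene apart.

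Treated IR was compared with control, which shares its control library with the comparison above. Here 5 of the 9 genes were apart and higher, namely Timp1, Des, Vim, Dcn and Col3a1, and 0 lower, where 4.81% of all genes tested were higher and 2.39% lower. Timp1 was 6.79-fold higher (interval 2.82 to 21.3), Des 6.02-fold (1.96 to 30.0), Vim 4.45-fold (2.76 to 7.63), Dcn 3.30-fold (1.67 to 7.43) and Col3a1 2.05-fold (1.75 to 2.40). The control side of these ratios is thin for Des, Timp1 and Dcn, with 3, 5 and 9 reads. Des reached the minimum of the low-count filter in 2 libraries, IR liver and treated IR liver, and not in control liver. It was thus tested only through libraries where it was high, and its place among the 5 is not independent of the filter. Type I collagen was not apart, with Col1a1 at 1.71-fold (1.04 to 2.95) and Col1a2 at 1.39-fold (0.985 to 2.0). Sparc stood at 1.26-fold (1.08 to 1.48) and Tgfb1 at 1.30-fold (0.827 to 2.12).

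**Figure D3:**
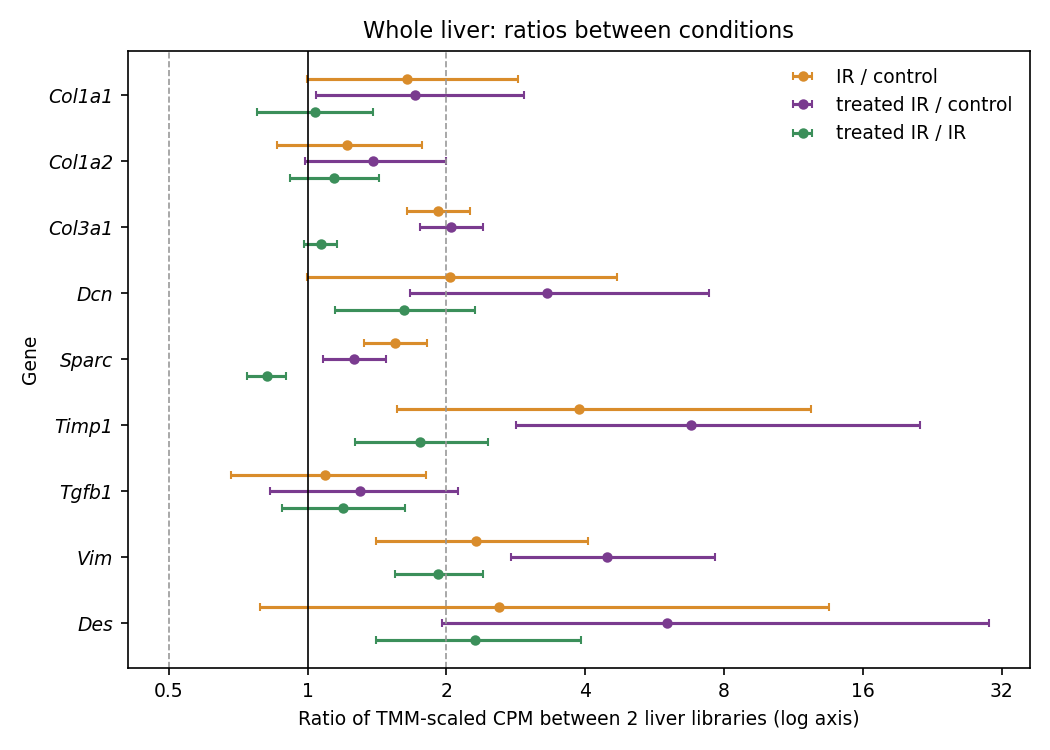
Ratios of TMM-scaled CPM between liver libraries (log axis) with 95% Clopper-Pearson counting intervals, for IR over control, treated IR over control and treated IR over IR. The solid line marks equality and the dashed lines 2-fold. Timp1, Des and Vim are more than 4-fold above control in treated IR liver, and Sparc alone has treated IR below IR (ratio 0.814), a direction that library totals alone turn.

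The drugs' effect was looked for in treated IR against IR alone. In liver, Des was the 1 gene of the 9 that was apart, 2.31-fold higher in the treated library (interval 1.41 to 3.92), where 1.82% of all genes tested were higher and 0.946% lower. Vim was 1.92-fold higher (1.54 to 2.40), Timp1 1.75-fold (1.26 to 2.46) and Dcn 1.62-fold (1.15 to 2.30), all under 2-fold with intervals above 1. The collagens lay close to equality, at 1.04 for Col1a1 (0.778 to 1.39), 1.14 for Col1a2 (0.913 to 1.42) and 1.07 for Col3a1 (0.982 to 1.16), as did Tgfb1 at 1.19 (0.879 to 1.63). Sparc was lower in treated IR, with a ratio of 0.814 (0.740 to 0.896), but higher with library totals alone (136.1 CPM against 127.2). Library totals alone shift the log2 ratios by 0.39, and Dcn, Timp1, Vim and Des are then apart.

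The liver libraries thus stood in the order control, IR, treated IR from low to high for 8 of the 9 genes, and for 23% of all genes tested. Sparc was the exception, highest in IR. Among the genes in this order, both steps had counting intervals clear of equality for Timp1 and Vim alone. For Col1a1, Col1a2 and Tgfb1 neither step did. With library totals alone the order held for 7 of the 9 genes, Sparc among them but not Col1a2 and Tgfb1, and for 22.4% of all genes.

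Shares among the 9 genes in the liver libraries, which need no scaling, differed as well. Vim made up 3.57% of their reads in control liver (95% Wilson interval 2.27 to 5.57). After IR its share was 4.86% (4.09 to 5.77), and after treated IR 8.77% (7.81 to 9.84). Sparc went the other way, from 39.5% (35.3 to 43.8) and 35.9% (34.0 to 37.8) to 27.5% (25.9 to 29.1). In both genes the treated IR library stood outside the intervals of the other 2 livers. Shares have a fixed total, so a larger share of some genes makes others smaller. By level, Sparc in treated IR liver was above control (ratio 1.26, interval 1.08 to 1.48). Timp1 took 0.992% (0.424 to 2.30), 2.25% (1.74 to 2.91) and 3.71% (3.09 to 4.45), and Des 0.595% (0.203 to 1.74), 0.909% (0.606 to 1.36) and 1.97% (1.53 to 2.54). Col3a1 at 36.9%, 41.5% and 41.6% and Col1a1 at 3.77%, 3.63% and 3.55% had overlapping intervals in the 3 livers.

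**Figure D4:**
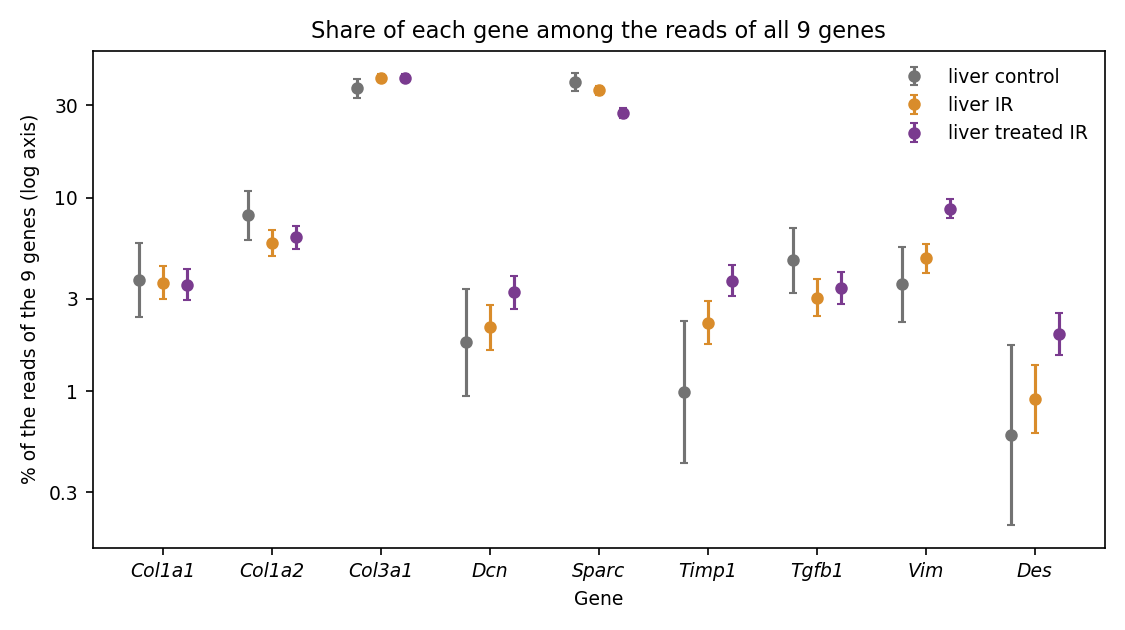
Share of each gene among the reads of all 9 genes (%, log axis) in the 3 liver libraries, with 95% Wilson intervals. The shares of Vim, Timp1 and Des are highest and that of Sparc lowest in treated IR liver, while Col1a1 stays between 3.55% and 3.77%.

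The 3 genes more than 4-fold above control in treated IR liver are shown with their promoters, the 250 bases before the gene start in RefSeq (GRCr8). This sets side by side the letters before the members with the largest ratios in that comparison. The counting intervals of all 3 ratios reach below 4-fold. The table holds 6 of the 9 genes. Col1a1, Col3a1 and Dcn are missing. Capitals mark matches, on both strands, to the TBP-binding letters TATAAA, the NF-Y-binding letters CCAAT or the Sp1-binding letters GGGCGG. The Timp1 window is chrX:3771123-3771372, minus strand, the Vim window chr17:81577011-81577260, plus strand, and the Des window chr9:84299376-84299625, plus strand.
Timp1: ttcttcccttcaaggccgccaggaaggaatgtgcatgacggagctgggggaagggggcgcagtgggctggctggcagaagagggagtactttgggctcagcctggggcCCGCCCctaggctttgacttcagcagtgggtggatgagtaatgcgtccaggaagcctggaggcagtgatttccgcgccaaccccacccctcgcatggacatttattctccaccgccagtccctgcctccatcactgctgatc
Vim: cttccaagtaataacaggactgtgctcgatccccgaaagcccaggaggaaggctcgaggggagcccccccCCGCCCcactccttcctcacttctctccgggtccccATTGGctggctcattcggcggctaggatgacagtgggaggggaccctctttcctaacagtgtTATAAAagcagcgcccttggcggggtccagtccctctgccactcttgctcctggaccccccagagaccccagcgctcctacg
Des: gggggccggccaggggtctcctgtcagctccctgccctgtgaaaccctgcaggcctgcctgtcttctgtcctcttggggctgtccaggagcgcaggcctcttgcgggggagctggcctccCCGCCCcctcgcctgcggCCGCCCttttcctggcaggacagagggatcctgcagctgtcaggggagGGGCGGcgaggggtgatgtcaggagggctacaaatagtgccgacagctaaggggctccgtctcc
GGGCGG, on one strand or the other, was found in all 3, with 1 match in Timp1, 1 in Vim and 3 in Des, and in 30.5% of the 33469 promoters of the table. It was in 0 of the promoters of Col1a2, Sparc and Tgfb1. TATAAA was found in Vim and Col1a2 (12.9% of all promoters) and CCAAT in the same pair (34.0% of all). TGANTCA, a form of the AP-1 site, was in 0 of the 6 promoters and 6.34% of all. Only exact matches were sought, so sites that differ from these letters were not counted. No matches of different motifs overlapped. These are descriptions of letters, and the counting data hold no measure of factor binding. The genes shown were picked by their ratios in these same data, and promoters of other members are missing. Whether any of these letters go with the level of a gene was not tested.

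In hepatocytes these genes had few reads. The control, IR and treated IR hepatocytes had 15.5, 14.5 and 18.1 CPM for the 9 genes together, and the ratio of IR to control was 0.934 (interval 0.645 to 1.36). That of treated IR to IR was 1.25 (0.825 to 1.86). For IR against control 0 of the 9 genes were apart, where 9.53% of all genes tested were higher and 6.93% lower. Vim came nearest, 2.96-fold higher in IR (0.983 to 12.0, 19 against 4 reads), and with library totals alone it is apart.

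For treated IR against IR alone in hepatocytes, 1 of the 9 genes, Timp1, was apart and higher (9 reads against 1, ratio 21.6, interval 2.99 to 947). Among all genes tested 11.2% were higher and 12.1% lower, so the count of 1 in 9 is close to the share of all genes. Against control, with 0 Timp1 reads, Timp1 was 4.49-fold higher with 3 reads put in for the empty library. The interval starts at 2.95, where 4.23% of all genes were higher and 4.09% lower. Vim was 3.96-fold lower in treated IR than in IR hepatocytes, with an interval that includes equality (0.955 to 35.0), while in liver it was 1.92-fold higher. Whether the preparations differ in this was not tested, since each cell of the design holds 1 library.

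Conditions were last tested over both preparations at once (edgeR quasi-likelihood test with preparation as a term, 6 libraries). A condition effect that differs between liver and hepatocytes counts as error in this test. For IR vs control, 0 of the 9 genes passed an adjusted p of 0.05 and 1, Vim, had an unadjusted p under 0.05 (log2 ratio 1.41, SE 0.58, edgeR unadjusted p = 0.0288, adjusted p = 0.996), beside 3.34% of all genes under that unadjusted limit. For treated IR vs IR alone 0 passed and 1, Timp1, was under it (log2 ratio 1.56, SE 0.65, edgeR unadjusted p = 0.0302, adjusted p = 0.981), beside 2.99% of all genes. For treated IR vs control 0 passed and 3 were under it, beside 2.32% of all genes: Timp1 (log2 ratio 3.44, SE 0.86, edgeR unadjusted p = 0.00135), Vim (1.70, SE 0.58, unadjusted p = 0.0106) and Dcn (1.70, SE 0.76, unadjusted p = 0.046), all with an adjusted p of 1. Timp1 was higher in treated IR than in control in 2 of 2 preparations, Vim in 1 (liver), and Dcn in liver with no reads in hepatocytes. The share of all genes called in these 3 comparisons was 0% in each direction, and DESeq2 and limma-voom also called 0 of the 9 genes.

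Single libraries and the filter moved these counts. For treated IR vs control, Timp1 was called with no filter on low counts, where 14 of all 16548 genes were called. It was also called without the IR liver (36 of 10126 genes called), the treated IR liver (21 of 9834) or the IR hepatocyte library (37 of 10073). Without the treated IR hepatocyte library Vim was called in its place, among 17 of 10929 genes. Without the IR liver library hepatocytes alone stood for IR. Vim was then called for IR vs control, where the genes called over the whole table went from 0 to 402 of 10126, and Timp1 for treated IR vs IR alone, where they went from 0 to 659. A condition left with 1 library is assumed to vary like the others.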

How the data were processed

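Poly(A)-selected RNA pooled from 3 animals per group was sequenced on an Ion Torrent Proton, per the labels' protocols. Values are the authors' raw counts, 1 per gene ID and library. Per the submitters' processing notes, TopHat2 2.0.13 and HTSeq 0.6.1 were used. Of the build, annotation and strand setting nothing is given in the sources used here, and reads shared with overlapping or antisense genes cannot be judged. Pairs of symbol and ID came with the gene list. The reference table (GRCr8) holds the 9 symbols but no Ensembl ID, so the pairs were not checked, and other matrix genes, cell markers and genes of like pattern, listed by symbol, were not run. Members and lists were chosen with earlier results of these data known, and all 9 are described.

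Summary lines that name no gene were left out (reads outside genes, 6.23% to 8.34%). Counts were filtered with filterByExpr by condition (minimum count 10, 9932 genes kept), scaled by TMM and tested with edgeR 4.0.16 (R 4.3.3) with preparation and condition as additive terms, which leaves 2 residual degrees of freedom, and with Benjamini-Hochberg adjustment over all genes at 0.05. SE came from the log2 ratio and its F statistic. Pairs of libraries were compared by ratios with Clopper-Pearson intervals, and pairwise log2 ratios have a prior count of 2. With 1 pool per group, p-values rest on the spread that the additive terms leave over. For each gene edgeR draws this spread towards that of the other genes tested, so small p-values rest in part on other genes. The spread mixes variation between pools with any difference in the condition effect between preparations, and no spread between like pools was measured. Scripts were tested on simulated data. Alternatives were DESeq2 1.42.0 size factors and Wald test, limma-voom (3.58.1), library totals alone, no filter, a minimum count of 50, a 4-fold rule, a prior count of 0.5 and leaving out each library.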

Additional observations from a re-analysis of the deposited data

How the results depend on the processing

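For hepatocytes vs liver all 9 genes were called lower with library totals alone, no filter, limma-voom, and both the size factors and the Wald test of DESeq2, and 6 of the 6 still tested with a minimum count of 50, which drops Dcn, Timp1 and Des. Leaving out 1 library gave 8 to 9. For IR vs control, treated IR vs IR alone and treated IR vs control over both preparations, leaving out 1 library gave 0 to 1 called genes in each, and no filter gave 1 for treated IR vs control. Of the counts apart in liver (IR vs control 2, treated IR vs IR alone 1, treated IR vs control 5), library totals alone gave 1 and 4 for the first pair of comparisons, a minimum count of 50 gave 1, 0 and 2, and the 4-fold rule 0, 0 and 3. With no filter IR vs control in liver gave 3, as Dcn was then apart as well. In hepatocytes (0, 1 and 1 in the same order), library totals alone gave 1 and 2 for the first pair, the second being Timp1 higher and Vim lower, and a minimum count of 50 gave 1, 0 and 0. Lost genes under the minimum of 50 include the 3 it removes, and the cause of the other shifts was not tested. Of 106 counts of called or apart genes over all settings, 13 are the values reported, 73 stayed within 1.5 times of them and 20 did not. For single genes, 225 values stayed on their side of the threshold or within the counting interval, 7 moved beyond the interval, and Des lost its call in 2. No called value reversed. With library totals alone 3 log2 ratios in liver that were not apart changed sign: Col1a2 (0.28 to -0.04) and Tgfb1 (0.12 to -0.20) for IR vs control, and Sparc (-0.30 to 0.10) for treated IR vs IR alone. No paired analysis was possible, because the hepatocytes came from further animals and each group has 1 library. In hepatocytes, with 39 to 75 reads over all 9 genes per library, a 2-fold difference in most single genes was not detectable.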
